A study of Homo sapiens with 33 samples.

Results

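The genes described here are KLF2, KLF4, KLF5, KLF17, TFCP2L1, ESRRB, DPPA3 and DPPA5, which encode factors associated with naive pluripotency. They were selected by name, with earlier results of these data known, and make up 8 of the 35805 genes in the RNA-seq table and 26 of the 153958 start-site windows in the ChIP-seq table. The study asked what human embryonic stem cells (ESCs) lose when EZH2, the methyltransferase of Polycomb repressive complex 2 (PRC2), is disrupted. RNA-seq covered 3 libraries of each of 4 genotypes, given as biological replicates, and ChIP-seq covered 4 histone marks and input in the same genotypes, with 1 deposited value for each mark and genotype. EZH2 occupancy was profiled in EZH2+/+ ESCs alone.

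All cells were H9, an established human ESC line, grown on irradiated mouse feeder cells and sorted for the surface marker SSEA4. EZH2+/+ ESCs were the parental line. EZH2-/+ ESCs were a CRISPR/Cas9-edited clonal line with 1 disrupted allele. EZH2-/- ESCs were obtained by targeting an EZH2-/+ line again after it had received a doxycycline (DOX)-inducible EZH2 transgene by piggyBac transposition. In EZH2-/-+EZH2 ESCs that transgene was induced with DOX. The paper describes EZH2-/-+EZH2 ESCs as EZH2-/- ESCs to which DOX was added. The labels do not say whether the sequenced EZH2-/- cells still held the uninduced transgene. Nor do they say whether both genotypes were sequenced from the same line. Because each edited genotype was derived from single colonies, the history of a clone and the effect of its genotype cannot be told apart in comparisons with EZH2+/+ ESCs. Exposure to DOX likewise coincided with the return of EZH2.

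Pluripotent cells are held in more than 1 state. Naive cells resemble the pre-implantation epiblast and use a transcription factor circuit in which KLF, TFCP2L1 and ESRRB proteins sustain the core factors OCT4, SOX2 and NANOG, whereas conventional human ESCs resemble the later, primed epiblast and express most of that circuit weakly or not at all. KLF17 is characteristic of human naive cells, and ESRRB has a larger part in mouse than in human naive cells. DPPA3 and DPPA5 are markers of early embryonic and germ cells. PRC2 places trimethylation on lysine 27 of histone H3 (H3K27me3), a mark of repressed promoters that favors CpG-rich DNA. H3K4me3 marks promoters, H3K4me1 marks enhancers and the flanks of promoters, and H3K27ac marks active elements and cannot sit on a lysine that is methylated.

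Promoter sequences of all 8 genes were found in RefSeq (GRCh38.p14), as 250 bases before and 50 bases after a start site. A total of 11 such promoters were listed, of which 8, 1 for each gene, lay in the 5 kb window used below for that gene. The sequences of 4 are shown because they include low and high CpG content and H3K27me3. KLF2, which is not shown, was the highest of these genes in both. CG dinucleotides are in capitals, and each sequence reads 5′ to 3′ on the strand of its gene. KLF4 lies on the minus strand (chr9:107489720-107490019), as does TFCP2L1 (chr2:121285153-121285452), and ESRRB (chr14:76375887-76376186) and DPPA3 (chr12:7711183-7711482) lie on the plus strand.
KLF4: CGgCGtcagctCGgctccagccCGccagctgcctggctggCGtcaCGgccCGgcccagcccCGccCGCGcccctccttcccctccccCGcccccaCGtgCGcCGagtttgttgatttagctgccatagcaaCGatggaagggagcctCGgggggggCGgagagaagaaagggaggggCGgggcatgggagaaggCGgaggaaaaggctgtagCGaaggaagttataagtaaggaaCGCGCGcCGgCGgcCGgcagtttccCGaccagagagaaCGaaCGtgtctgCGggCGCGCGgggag
TFCP2L1: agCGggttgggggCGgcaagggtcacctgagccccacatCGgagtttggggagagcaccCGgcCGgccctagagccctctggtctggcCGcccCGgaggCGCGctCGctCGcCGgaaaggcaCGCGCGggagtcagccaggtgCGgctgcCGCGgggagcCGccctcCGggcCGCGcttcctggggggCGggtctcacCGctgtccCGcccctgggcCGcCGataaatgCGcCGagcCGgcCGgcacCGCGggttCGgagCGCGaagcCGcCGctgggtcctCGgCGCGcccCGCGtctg
ESRRB: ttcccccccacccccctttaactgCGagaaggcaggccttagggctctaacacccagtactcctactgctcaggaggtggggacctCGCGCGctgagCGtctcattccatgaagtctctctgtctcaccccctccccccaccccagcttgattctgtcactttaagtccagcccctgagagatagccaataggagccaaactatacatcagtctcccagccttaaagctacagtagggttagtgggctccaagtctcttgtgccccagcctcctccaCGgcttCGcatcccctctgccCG
DPPA3: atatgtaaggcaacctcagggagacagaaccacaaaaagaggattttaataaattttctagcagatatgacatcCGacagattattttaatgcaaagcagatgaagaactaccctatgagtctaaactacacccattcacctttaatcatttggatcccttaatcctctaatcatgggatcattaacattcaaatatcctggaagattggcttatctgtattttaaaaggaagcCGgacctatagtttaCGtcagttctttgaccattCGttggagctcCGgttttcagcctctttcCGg

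The CpG ratio is the number of CG dinucleotides divided by the number expected from the C and G content. It had a median of 0.579 over all 35116 RefSeq promoters (interquartile range 0.229 to 0.856). The promoters of KLF2 (1.00), KLF5 (0.978), TFCP2L1 (0.960) and KLF4 (0.934) lay above that range. KLF2 held 49 CG dinucleotides, TFCP2L1 43, KLF5 37 and KLF4 33. KLF17 (0.650), DPPA5 (0.644) and DPPA3 (0.549) lay near the median, and ESRRB was lower (0.348), with 8 CG dinucleotides. DPPA3 was also poor in G and C (38.3%, against a median of 58.7%). The CACCC-type motif that KLF proteins recognize was searched as CCNCNCCC on both strands, with overlapping matches counted. It occurred in the promoters of 7 of the 8 genes, from 2 copies in KLF17 and TFCP2L1 to 10 in KLF4, and in 56.2% of all promoters. DPPA3 had no match, which says only that these letters are not in this window.

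Sequencing depth was 16.6 to 36.6 M reads on genes per RNA-seq library. A count of 3 reads, the floor used here, corresponded to 0.0528 to 0.120 RPM (reads-per-million), and intervals and floors given below cover counting error only. EZH2 itself checked the labels. Parental ESCs had 63.8 ± 4.56 RPM (SD, n = 3), EZH2-/+ ESCs 51.2 ± 4.95 and EZH2-/- ESCs 9.95 ± 1.44, and with the transgene induced the level was 304 ± 70.6 RPM. The summed RPM of 12 endoderm genes was 38.0 to 71.4 in EZH2+/+ libraries and 258 to 560 in EZH2-/- libraries. It was 23.8 to 500.5 in EZH2-/+ libraries and 53.2 to 107 in EZH2-/-+EZH2 libraries. EZH2-/+ replicate 2 held the value of 500.5, and this library is described separately below. In bulk RNA, fewer cells that express a gene and less RNA per cell cannot be told apart.

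KLF2, KLF4, KLF5, TFCP2L1 and DPPA3 were all higher in EZH2-/- than in EZH2+/+ ESCs, by 5.67-fold to 110-fold in mean RPM, and ESRRB was 2.04-fold higher at a level of few reads. KLF17 and DPPA5 remained at or near 0 reads. With EZH2 restored, KLF5 returned close to the EZH2+/+ level, whereas DPPA3 and TFCP2L1 did not. Because the level of a gene depends on its length, RPM are compared below between samples of 1 gene.

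KLF2 (chr19:16324817-16327874) is a KLF protein of the mouse naive circuit. It was measured at 0.133, 0.279 and 0.284 RPM in the EZH2+/+ libraries and at 1.44, 3.87 and 3.95 RPM in the EZH2-/- libraries. The EZH2-/+ libraries had 0.0979, 0.281 and 0.249 RPM, and the EZH2-/-+EZH2 libraries 0.849, 0.777 and 0.280 RPM. Every EZH2-/- library was above all of the other libraries, and 1 of the 3 restored libraries fell within the EZH2+/+ range. The EZH2+/+ values rest on 6 to 13 reads per library.

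KLF4 (chr9:107484852-107490482) is a KLF factor of the naive circuit and of reprogramming. The EZH2+/+ values were 1.27, 1.04 and 2.19 RPM, and those of EZH2-/- ESCs were 7.55, 9.12 and 8.79. With EZH2 restored they were 2.29, 2.68 and 3.04 RPM. These 3 genotypes did not overlap. In EZH2-/+ ESCs replicates 1 and 2 were at 1.62 and 1.84 RPM, whereas replicate 3 was at 7.10 RPM from 399 reads, only just under the lowest EZH2-/- library.

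KLF5 (chr13:73054976-73077542) is expressed in naive cells and in trophectoderm. EZH2+/+ ESCs had 0.866, 1.19 and 0.765 RPM, whereas EZH2-/- ESCs had 5.79, 11.2 and 6.53 RPM. The restored libraries were at 1.23, 1.34 and 0.919 RPM and overlapped those of EZH2+/+ ESCs. EZH2-/+ ESCs were at 0.808, 2.2 and 0.747 RPM, and the high value there was replicate 2.

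TFCP2L1 (chr2:121216587-121285207) is a grainyhead-like factor that maintains naive cells downstream of LIF signaling. EZH2+/+ ESCs had 0.688, 0.938 and 0.918 RPM, whereas EZH2-/- ESCs had 4.50, 5.46 and 4.66 RPM. The restored libraries, at 2.44, 2.92 and 2.36 RPM, lay between these genotypes without touching either. EZH2-/+ ESCs were at 1.00, 1.62 and 0.836 RPM and overlapped EZH2+/+ ESCs.

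DPPA3 (chr12:7711454-7717559), also called STELLA, protects DNA methylation patterns in the early embryo. It was close to undetectable in EZH2+/+ ESCs, with 4, 0 and 6 reads. In EZH2-/- ESCs it had 248, 453 and 469 reads, or 4.36, 8.5 and 13.9 RPM. EZH2-/+ ESCs (0.661, 0.799 and 0.391 RPM) and EZH2-/-+EZH2 ESCs (0.669, 1.21 and 0.680 RPM) were intermediate, and every library of either was above every EZH2+/+ library. Over the pooled reads, DPPA3 was 106-fold higher in EZH2-/- than in EZH2+/+ ESCs (exact 95% counting interval 57.4 to 222). Processed copies of DPPA3, DPPA5, KLF2, KLF4 and KLF17 are annotated elsewhere in the genome, and whether reads were shared with them was not tested.

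ESRRB (chr14:76310614-76501841), an orphan nuclear receptor of the mouse naive circuit, was low throughout. The EZH2+/+ libraries had 9, 9 and 7 reads (0.200, 0.228 and 0.153 RPM) and the EZH2-/- libraries 22, 25 and 11 reads (0.387, 0.469 and 0.327 RPM). The EZH2-/+ libraries had 3 reads each and the restored libraries 3 or 4, at or just over the floor. The pooled ratio of EZH2-/- to EZH2+/+ ESCs was 2.10 (exact 95% counting interval 1.29 to 3.51). The library kit did not keep strand, but the antisense gene that overlaps ESRRB was listed with at most 1 read in any library.

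KLF17 (chr1:44118850-44135140) had 0 reads in 11 of the 12 libraries and 1 read in EZH2-/- replicate 3. DPPA5 (chr6:73353062-73354295) had 2 reads in EZH2+/+ replicate 1, 2 reads in EZH2-/- replicate 2 and 21 reads in EZH2-/+ replicate 3, and 0 reads in the other 9 libraries. The library with 21 DPPA5 reads was also the one with the high KLF4 value. Expression of KLF17 in EZH2-/- ESCs was not detectable at this depth, as 3 reads would have been 0.0528 to 0.0891 RPM there.

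**Figure D1:**
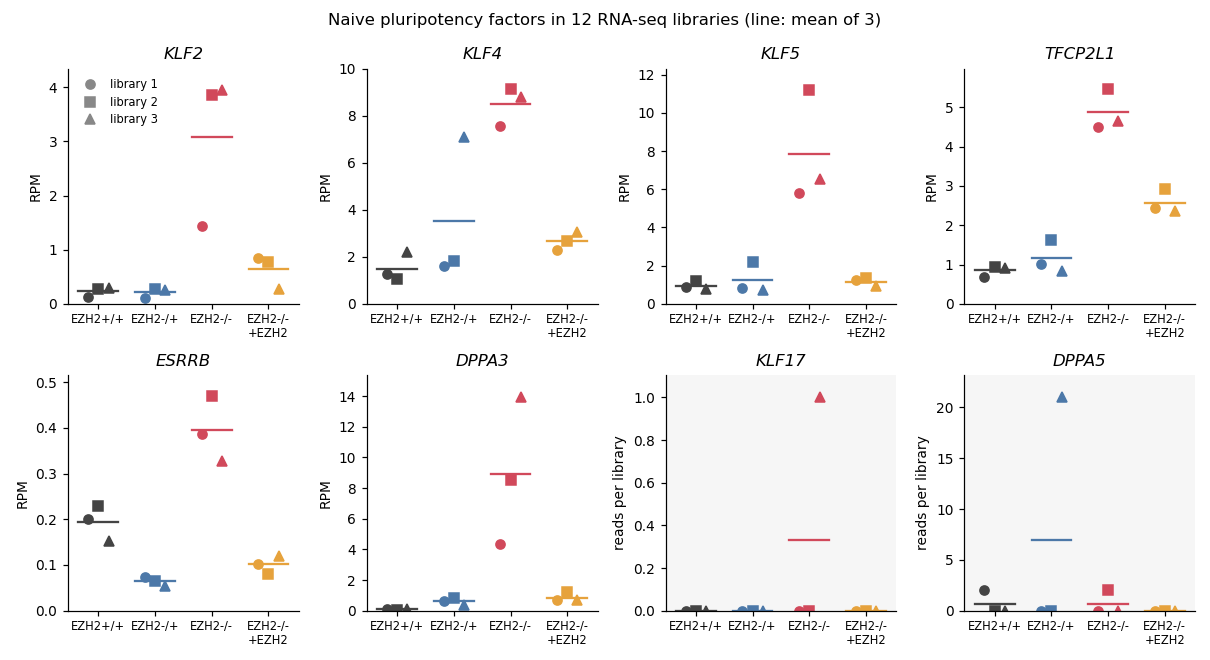
Values of the 8 naive factors in each of 12 RNA-seq libraries, by genotype, in RPM for 6 genes and in reads per library for KLF17 and DPPA5. Marker shapes give the library number and lines the mean of 3 libraries. For KLF2, KLF4, KLF5, TFCP2L1, ESRRB and DPPA3 all 3 EZH2-/- libraries lie above every other library. High EZH2-/+ points include KLF4 at 7.10 RPM and DPPA5 at 21 reads, both in replicate 3, and KLF5 at 2.2 RPM in replicate 2.

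Per kilobase of exon, the order of these genes in EZH2-/- ESCs was DPPA3 (8.12 ± 4.36 RPM per kb, SD, n = 3), KLF4 (2.32 ± 0.227), KLF5 (2.13 ± 0.799), KLF2 (1.09 ± 0.505), TFCP2L1 (0.521 ± 0.0549) and ESRRB (0.0665 ± 0.0121). KLF4 and KLF5 differed by less than their spread. In EZH2+/+ ESCs the order was KLF4 (0.409 ± 0.166), KLF5 (0.256 ± 0.0607), TFCP2L1 (0.0905 ± 0.0148), KLF2 (0.0823 ± 0.0304), DPPA3 (0.0736 ± 0.0496) and ESRRB (0.0327 ± 0.00641). TFCP2L1, KLF2 and DPPA3 could not be separated there. DPPA3 thus moved from the fifth to the first place in this order.

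The changes were tested by limma on log2(RPM + 0.1) with Benjamini-Hochberg adjustment over the 20689 genes that averaged 0.1 RPM or more across libraries. An adjusted p under 0.05 was a call. KLF17 and DPPA5 did not reach that average. The other 6 did, and also reached it over the 9 libraries that were not EZH2-/-. In EZH2-/- relative to EZH2+/+ ESCs, all 6 were called higher, where 12.8% of all genes tested were called higher and 18.9% lower. No library overlapped between the 2 genotypes for any of the 6, which was so in this direction for 20.7% of genes tested. The median log2 fold change was 2.69 over the 6 genes and -0.13 over all genes tested.

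The log2 fold change was largest for DPPA3, at 5.54 (standard error 0.43, adjusted p = 7e-06 by limma). KLF2 followed at 3.17 (0.47, adjusted p = 0.00044), KLF5 at 2.89 (0.39, adjusted p = 0.00025), KLF4 at 2.49 (0.45, adjusted p = 0.0016) and TFCP2L1 at 2.40 (0.26, adjusted p = 7.1e-05). These 5 calls held under all 20 alternative settings. For ESRRB the log2 fold change was 0.75 (0.26, adjusted p = 0.043 by limma), and this call held in 8 of 19 alternative settings, over which its adjusted p was 0.0073 to 0.15. It was lost with a pseudocount of 0.02 RPM, with only the 2 genotypes in the fit, and when any EZH2+/+ library, EZH2-/- replicate 1 or 2, EZH2-/+ replicate 1 or 2, or EZH2-/-+EZH2 replicate 1 or 2 was left out. Rescaling RPM by the median ratio of expressed genes moved the median of all genes by over 0.1, to -0.02, and turned the split of calls from 2646 higher and 3900 lower to 3344 higher and 2934 lower. All 6 genes were called under either scaling. Without EZH2-/- replicate 2 the number of genes called fell from 6546 to 4214.

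Relative to EZH2-/-+EZH2 ESCs, in which the EZH2 transgene was induced, 4 of the 6 genes were called higher in EZH2-/- ESCs, where 2.84% of all genes tested were higher and 0.556% lower. The log2 fold changes were 3.14 for DPPA3 (standard error 0.43, adjusted p = 0.0028 by limma), 2.61 for KLF5 (0.39, adjusted p = 0.0041), 2.10 for KLF2 (0.47, adjusted p = 0.030) and 1.29 for ESRRB (0.26, adjusted p = 0.019). KLF4 and TFCP2L1 did not pass, at 1.64 (0.45, adjusted p = 0.072 by limma) and 0.90 (0.26, adjusted p = 0.087). All 6 genes had no overlap between the libraries of these genotypes, as had 13.5% of all genes tested. When library numbers were added as a block, KLF4 (adjusted p = 0.014) and TFCP2L1 (adjusted p = 0.025) were also called by limma, and the number of genes called rose from 702 to 1976. Without EZH2-/+ replicate 3, which enters only through the shared estimate of the spread, adjusted p was 0.0052 for KLF4 and 0.046 for TFCP2L1. The call for KLF2 held in 12 of 20 alternative settings. It was lost without EZH2-/- replicate 2 or 3 or EZH2-/-+EZH2 replicate 2 or 3, with a pseudocount of 0.02 RPM, with no filter, with a filter at 1 RPM and with only the 2 genotypes in the fit (adjusted p by limma up to 0.16). The call for ESRRB held in 15 of 19 and was lost without EZH2-/- replicate 2 or EZH2-/-+EZH2 replicate 1 or 2 and with only the 2 genotypes in the fit.

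In EZH2-/-+EZH2 relative to EZH2+/+ ESCs, 2 of the 6 genes were called higher, where 3.36% of all genes tested were. They were DPPA3, up by 2.40 on the log2 scale (standard error 0.43, adjusted p = 0.0047 by limma), and TFCP2L1, up by 1.5 (0.26, adjusted p = 0.0042). The call for DPPA3 was lost only with a pseudocount of 1 RPM, of the 20 settings tried. The values of KLF2 (1.07, adjusted p = 0.17 by limma), KLF4 (0.85, adjusted p = 0.26), KLF5 (0.29, adjusted p = 0.69) and ESRRB (-0.54, adjusted p = 0.21) did not pass. Median-ratio rescaling changed the split of all calls in this comparison from 695 higher and 1417 lower to 952 higher and 917 lower.

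In EZH2-/+ relative to EZH2+/+ ESCs only DPPA3 was called, where 0.179% of genes tested were higher, up by 1.99 on the log2 scale (standard error 0.43, adjusted p = 0.043 by limma). Each EZH2-/+ library had more DPPA3 reads than each EZH2+/+ library, 22 to 37 against 0 to 6. The call held in 6 of 20 alternative settings, over which its adjusted p was 0.023 to 0.51, and it was lost in 9 of the 12 fits that left out 1 library. The other 5 genes had adjusted p of 0.19 to 0.99 by limma, the lowest for ESRRB (log2 fold change -0.84). Here the split of all calls was 37 higher and 204 lower, and 53 and 144 after rescaling.

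Relative to EZH2-/+ ESCs, all 6 genes were called higher in EZH2-/- ESCs (10.5% of genes tested were), with log2 fold changes from 1.57 for KLF4 (adjusted p = 0.029 by limma) to 3.55 for DPPA3 (adjusted p = 0.00020). The KLF4 call was lost without EZH2-/+ replicate 1 or 2 or any 1 of the EZH2-/- replicates, with no filter and with only the 2 genotypes in the fit, and held in 13 of 20 settings. EZH2-/-+EZH2 and EZH2-/+ ESCs differed only in TFCP2L1 among these genes (1.72% of genes tested were called higher), at 1.14 (adjusted p = 0.041 by limma), and that call was lost in 10 of the 12 fits that left out 1 library. These 6 comparisons share libraries, so they are not independent of each other.

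**Figure D2:**
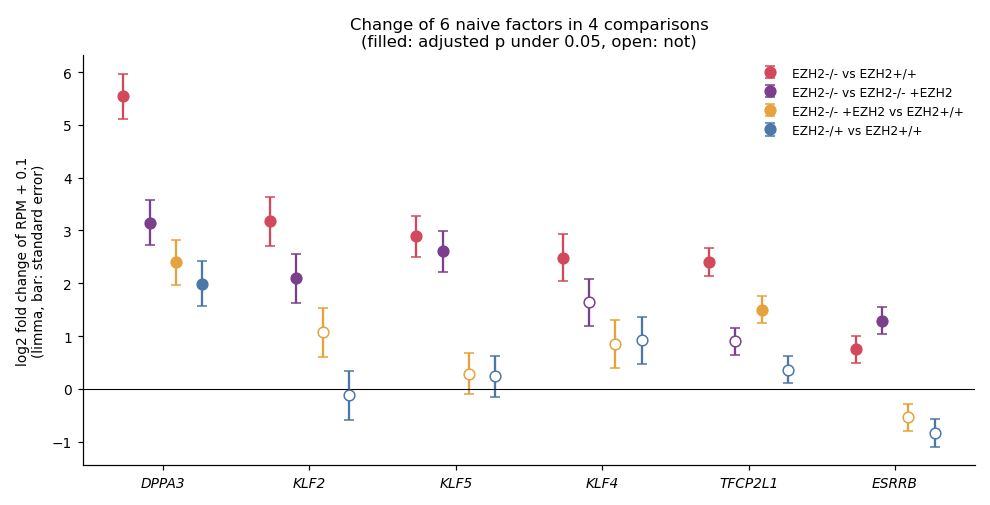
Log2 fold changes of RPM + 0.1 by limma for the 6 naive factors that could be tested, with bars of 1 standard error, in 4 comparisons. Filled circles passed an adjusted p of 0.05. The EZH2-/- to EZH2+/+ change runs from 0.75 for ESRRB to 5.54 for DPPA3, and the EZH2-/-+EZH2 to EZH2+/+ change passed for DPPA3 and TFCP2L1.

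Endoderm genes and KLF5 can be set side by side in EZH2-/+ replicate 2. Its endoderm sum of 500.5 RPM was near that of EZH2-/- replicate 2 (560 RPM) and above those of EZH2-/- replicates 1 and 3 (260.1 and 258 RPM). The gene CER1 alone gave 358.1 RPM of it. Without CER1 the sum over the other 11 genes was 142 RPM in that library, below EZH2-/- replicates 1, 2 and 3 (144, 251 and 173 RPM) and above the EZH2+/+ libraries (at most 56.0 RPM). KLF5 was 2.2 RPM in that EZH2-/+ library, against 5.79 and 6.53 RPM in EZH2-/- replicates 1 and 3. KLF2 (0.281 RPM), KLF4 (1.84 RPM), TFCP2L1 (1.62 RPM) and DPPA3 (0.799 RPM) were each below every EZH2-/- library there. In EZH2-/+ replicate 3, which had the high KLF4 value, the endoderm sum was 23.8 RPM, the lowest of the 12 libraries. These are values of single libraries, and the part of endoderm-like RNA in the change of the naive factors was not tested.

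Among other gene lists, 15 of the 17 naive-associated genes that could be tested (of 25 listed) were called higher in EZH2-/- than in EZH2+/+ ESCs by limma, with a median log2 fold change of 1.79. DNMT3L, a cofactor of DNA methyltransferases, rose by 5.71 on the log2 scale, NODAL, a TGF-beta family ligand, by 4.64, NLRP7, a maternal-effect gene, by 3.40 and the T-box factor TBX3 by 3.38. Of 14 core pluripotency genes, 10 were higher and 1, SOX2, was lower (-1.05). Largest were DPPA2 (2.32), TDGF1 (2.12), NANOG (1.99) and L1TD1 (1.56). Of 20 primed-associated genes, 9 were lower, among them ZIC5 (-1.74), ZIC2 (-1.52) and CDH2 (-1.36), and 1 was higher, the surface protein THY1 (1.54). Against EZH2-/-+EZH2 ESCs the calls were far fewer, with 2 of 17 naive-associated genes higher. Of the 14 core and 20 primed-associated genes 0 were called by limma in either direction, and 1 and 4 had an unadjusted p under 0.05.

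Of the 11 genes of the LIF and STAT3 pathway, which feeds into KLF4 and TFCP2L1 in mouse naive cells, 3 were higher and 1 was lower. Between EZH2-/- and EZH2+/+ ESCs these were the ligand LIF (1.24), BCL3 (1.07), the kinase JAK1 (1.03) and the homeobox gene GBX2 (-1.14). With EZH2+/+ ESCs as the reference, only GBX2 was called in EZH2-/+ ESCs (-3.32, adjusted p = 0.0023 by limma). In EZH2-/-+EZH2 ESCs the calls by limma were GBX2 (-1.675, adjusted p = 0.02) and JAK1 (0.69, adjusted p = 0.035). Comparing EZH2-/- with EZH2-/-+EZH2 ESCs gave 0 calls among the 11 genes, and 5 had an unadjusted p under 0.05. TCF7L1 restrains ESRRB, KLF2 and TFCP2L1 in mouse ESCs. Of the 10 genes of the WNT and TCF7L1 branch, 0 were called by limma between EZH2-/- and EZH2+/+ ESCs. An unadjusted p under 0.05 was found for 1 of them. The log2 fold changes of the genes with the highest level in this branch were 0.04 for CTNNB1 and -0.11 for TCF7L1. Of 12 other KLF genes tested, 3 were higher and 2 lower, all by less than 1 on the log2 scale, with KLF8 (0.96), KLF13 (-0.82), KLF16 (0.81) and KLF6 (0.71) the largest. Of 7 paralogs of TFCP2L1 and ESRRB, 4 were higher, with GRHL2 (2.69) and GRHL3 (1.79) ahead of ESRRA (0.93) and GRHL1 (0.84).

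Genes of other cell types moved with the same comparison. By limma, 7 of 12 endoderm genes were higher in EZH2-/- than in EZH2+/+ ESCs, led by CER1 (3.96), GATA6 (3.46), GATA4 (2.93) and APOA1 (2.28). Of 12 mesoderm and mesenchyme genes, 7 were higher, led by HAND1 (4.86), TWIST1 (4.48), COL3A1 (4.46) and LUM (2.93), and COL1A2 was lower (-1.08). Of 8 trophectoderm and amnion genes tested, 5 were higher, led by GATA2 (2.80), ISL1 (2.49), GATA3 (2.29) and HEY1 (2.03). Of 9 endothelial genes tested, 3 were higher and 2 lower, with TEK (-2.89), CLDN5 (-2.61), ESAM (2.01) and PECAM1 (2.01) the largest. Of 8 germ cell genes tested, 4 were higher and 2 lower, and besides DPPA3 itself the largest were DAZL (-3.03), TCL1A (2.87) and SOX17 (1.99). ISL1, TCL1A and TBX20, a mesoderm gene counted as higher, averaged under 0.1 RPM outside the EZH2-/- libraries. They passed the filter only through the EZH2-/- libraries, which favored their calls. The summed RPM of mesoderm and mesenchyme genes was 196 to 536 in EZH2-/- and 245 to 330 in EZH2+/+ libraries, and that of trophectoderm and amnion genes 17.5 to 28.2 and 10.1 to 13.5. Their part in the change of the naive factors was not tested either.

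For each naive factor that averaged 1 RPM or more, the genes with the most similar pattern were found by Pearson's r over the 12 libraries among 15498 genes, as a description. They were BAG3 (0.981), AP001065.15 (0.979) and SRPX2 (0.968) for KLF2, and DEPTOR (0.985), CDH1 (0.963) and DUSP8 (0.956) for KLF4. For KLF5 they were TTC39C (0.967), ZAP70 (0.964) and LRRN4 (0.960), and for TFCP2L1 RAB31 (0.989), PLSCR1 (0.987) and MRS2 (0.986). For DPPA3 they were CRB3 (0.984), CLDN7 (0.982) and MARVELD3 (0.981). All 5 factors were higher in the 3 EZH2-/- libraries than in any other library, a contrast that can by itself raise r. How much of these values it accounts for was not tested. No gene was shared between these 5 sets.

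The marks at these genes were read in windows that reach 2.5 kb either side of a start site. For each gene the window with the most H3K27me3 in EZH2+/+ ESCs was taken, here and for all gene names, a choice that favors high EZH2+/+ values. Each value is taken here as a mean of the log2 values of 2 libraries, as the labels list, although the paper states 3. EZH2 had 1 library. No replicate error and no test can be given, and the intervals are 95% counting intervals only, which depend on this number. H3K27me3 had 9.11 to 15.1 M reads per library and H3K4me3 in EZH2+/+ ESCs had 3.43 M reads.

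H3K27me3 divided the 8 genes. KLF2, KLF4, ESRRB, TFCP2L1 and KLF5 carried 29.7, 29.3, 26.9, 18.6 and 16.4 RPM in EZH2+/+ ESCs, each higher than at 94.3% or more of 35683 gene names. These 5 genes had an H3K27me3 promoter, as did 17.5% of all gene names. Such a promoter was defined here by little input and over 0.1 log2 RPKM of H3K27me3. The thresholds follow the methods of the paper, but the paper describes a much smaller set of promoters. The set used here for comparison is therefore not that of the paper, and the cause of the difference was not tested. KLF17 had 3.42 RPM, DPPA5 1.52 RPM and DPPA3 1.06 RPM, beside input of 1.58, 1.39 and 1.52 RPM. DPPA3, the gene with the largest increase in RNA, thus had an H3K27me3 value no higher than input.

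EZH2 occupancy in EZH2+/+ ESCs followed the same division. It was 3.66 RPM at KLF4 and 3.14 RPM at KLF2, above 98.5% and 98.2% of gene names. KLF5 (1.57 RPM), ESRRB (1.43 RPM) and TFCP2L1 (0.751 RPM) were above 95.4%, 94.9% and 84.4%. DPPA3 (0.182 RPM), KLF17 (0.172 RPM) and DPPA5 (0.107 RPM) were at or under 31.1%.

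In EZH2-/- ESCs, H3K27me3 fell to between 0.752 and 1.52 RPM at the 5 marked genes, where input was 0.843 to 1.61 RPM. The log2 differences from EZH2+/+ ESCs were -4.81 ± 0.56 (counting interval) at KLF2, -4.47 ± 0.50 at KLF4, -4.46 ± 0.64 at TFCP2L1, -4.20 ± 0.63 at KLF5 and -4.06 ± 0.45 at ESRRB. In all, 5 of 8 genes fell by at least 1, as did 48.0% of all gene names, and the median over the 6235 gene names with an H3K27me3 promoter was -3.67. DPPA3 (-0.16 ± 0.85) and KLF17 (-0.16 ± 0.47) did not move beyond counting error. DPPA5 rose from 1.52 to 2.55 RPM (0.71 ± 0.63). These values are shares of each library, and the median over all gene names was -0.94, so a gene that kept its RPM stood above most others.

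EZH2-/+ ESCs kept H3K27me3 at 17.0 to 32.5 RPM at the 5 marked genes, with log2 differences from EZH2+/+ ESCs of -0.13 to 0.17, all within counting error. The paper describes H3K27me3 in EZH2-/-+EZH2 ESCs as back at EZH2+/+ levels. At these genes the mark came back in part, as measured in RPM. It reached 54.2% of the EZH2+/+ value at TFCP2L1, 62.3% at KLF4, 62.5% at KLF2, 74.5% at KLF5 and 86.1% at ESRRB, where the median over gene names with an H3K27me3 promoter was 80.3% (interquartile range 66.4% to 93.0%). Subtracting the median over all windows made the log2 differences smaller. They became -0.64 at TFCP2L1, -0.44 at KLF4, -0.43 at KLF2, -0.18 at KLF5 and 0.026 at ESRRB. TFCP2L1, whose RNA stayed higher than in EZH2+/+ ESCs, had the lowest share of the 5, above only 10.5% of gene names with an H3K27me3 promoter. Its log2 difference in RPM, -0.88 ± 0.22 (counting interval), overlapped those of KLF4 (-0.68 ± 0.17) and KLF2 (-0.67 ± 0.17). The RNA of the other 4, with shares from 62.3% to 86.1%, was not called by limma. In mean RPM it was 2.74 times the EZH2+/+ level for KLF2, 1.78 for KLF4, 1.24 for KLF5 and 0.522 for ESRRB.

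The window matters for genes with several start sites. KLF5 had 2 of 4 windows that met the H3K27me3 rule, TFCP2L1 1 of 2, ESRRB 2 of 8, and KLF2 and KLF4 all of theirs. Across the ESRRB windows H3K27me3 in EZH2+/+ ESCs ran from 1.23 to 26.9 RPM and its difference in EZH2-/- ESCs from -4.62 to -1.05. Across the KLF5 windows they ran from 1.51 to 16.4 RPM and from -4.62 to -1.74.

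H3K27ac in EZH2+/+ ESCs ran from 1.16 RPM at ESRRB to 2.56 RPM at KLF4. These values were above 11.3% and 74.5% of gene names. In EZH2-/- ESCs it rose to 6.67 RPM at KLF2 (log2 difference 1.38 ± 0.45), to 6.89 RPM at KLF4 (1.39 ± 0.44) and to 2.88 RPM at KLF5 (1.11 ± 0.65). These 3 of 8 genes rose by at least 1, as did 9.18% of all gene names and 23.2% of those with an H3K27me3 promoter. The differences were 0.72 ± 0.72 at ESRRB, 0.56 ± 0.53 at TFCP2L1 and 0.47 ± 0.55 at DPPA3, with a median of 0.31 over all gene names. With EZH2 restored, H3K27ac was 3.13 RPM at KLF2, 4.20 RPM at KLF4 and 0.883 RPM at KLF5. At KLF4 it was also 4.96 RPM in EZH2-/+ ESCs (0.93 ± 0.46), the genotype in which 1 RNA library had a high KLF4 value.

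In the chosen windows H3K4me1 differed most at TFCP2L1 and DPPA3. At TFCP2L1 it rose from 2.95 RPM in EZH2+/+ to 7.24 RPM in EZH2-/- ESCs (log2 difference 1.27 ± 0.40), and at DPPA3 from 3.78 to 7.23 RPM (0.92 ± 0.37). TFCP2L1 was the 1 of 8 genes that rose by at least 1, as did 2.34% of all gene names. With EZH2 restored, H3K4me1 was still 5.58 RPM at TFCP2L1 (0.90 ± 0.40 above EZH2+/+ ESCs) and 6.27 RPM at DPPA3 (0.71 ± 0.36). In EZH2-/+ ESCs it was 3.91 RPM at TFCP2L1 (0.39 ± 0.48) and 5.91 RPM at DPPA3 (0.63 ± 0.41). TFCP2L1 and DPPA3 were also the 2 genes whose RNA was called higher in EZH2-/-+EZH2 than in EZH2+/+ ESCs. The second TFCP2L1 window went the other way, at -0.60, and another KLF5 window rose from 2.31 to 5.29 RPM (1.16). In EZH2-/-+EZH2 ESCs that KLF5 window was still at 4.58 RPM, whereas KLF5 RNA had returned close to the EZH2+/+ level. In the chosen windows of the other 6 genes the EZH2-/- difference lay between -0.08 and 0.49.

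H3K4me3 was already present in EZH2+/+ ESCs at the 5 genes with H3K27me3, from 8.52 RPM at TFCP2L1 to 18.7 RPM at KLF4. In EZH2-/- ESCs 0 of 8 genes rose by at least 1, as did 2.47% of all gene names. The largest increase was at KLF5 (0.36 ± 0.34) and the largest decrease at ESRRB (-0.44 ± 0.38). DPPA3 went from 4.38 RPM of H3K4me3 to 3.66 RPM in EZH2-/- ESCs (-0.25 ± 0.61) while its RNA rose, and 2.48 RPM with EZH2 restored (-0.80 ± 0.60). KLF17 and DPPA5 had 2.33 and 1.73 RPM, with differences of 0.24 ± 0.80 and 0.05 ± 0.94.

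**Figure D3:**
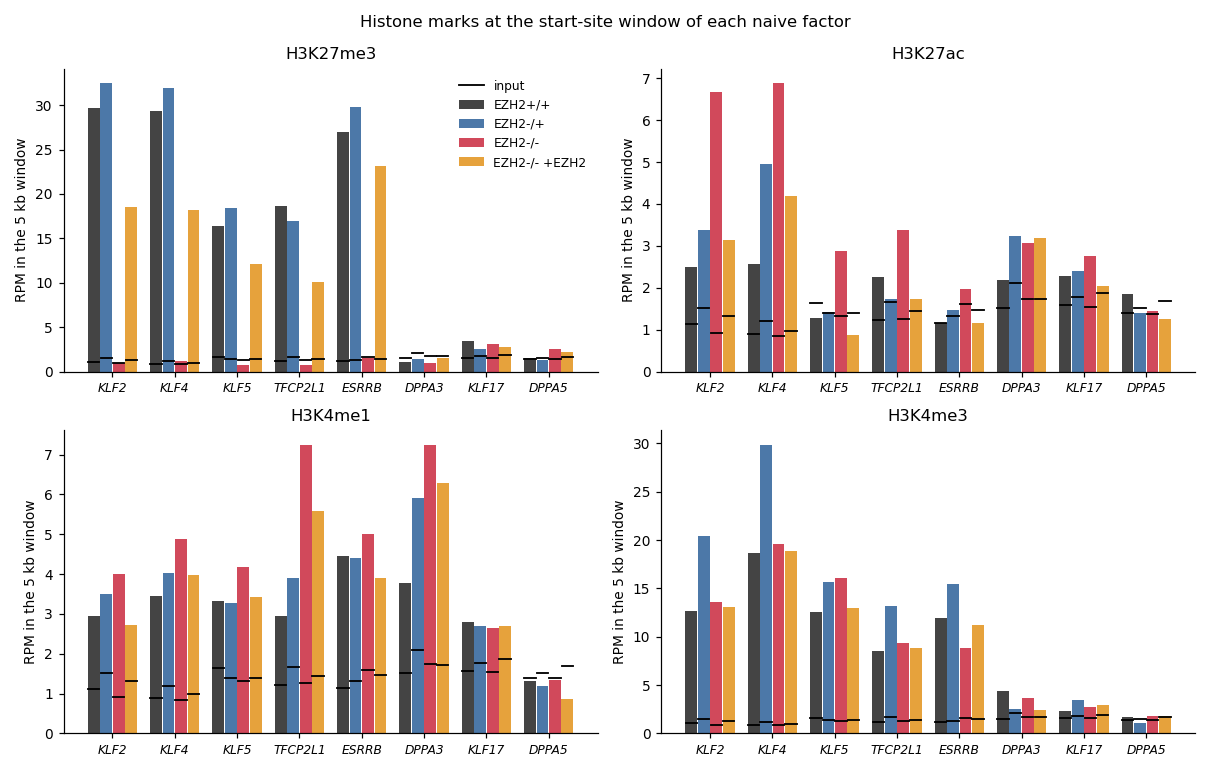
RPM of H3K27me3, H3K27ac, H3K4me1 and H3K4me3 in the 5 kb window of each naive factor, with bars for the 4 genotypes (each taken as a mean of 2 libraries, without replicate error) and black lines for input of the same genotype. H3K27me3 is high at KLF2, KLF4, KLF5, TFCP2L1 and ESRRB in all genotypes but EZH2-/-, H3K27ac is highest in EZH2-/- ESCs at KLF2 and KLF4 (6.67 and 6.89 RPM), and H3K4me1 is highest there at TFCP2L1 and DPPA3 (7.24 and 7.23 RPM).

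Sequence and chromatin can be read together in the promoters printed above. KLF4 and TFCP2L1 are dense in CG dinucleotides and carried 29.3 and 18.6 RPM of H3K27me3, where the 1994 gene names with a CpG ratio of 0.9 to 1.0 had a median of 2.42 RPM (interquartile range 1.42 to 5.75). ESRRB carried 26.9 RPM although the promoter in that window has only 8 CG dinucleotides. For the 688 gene names with a CpG ratio of 0.3 to 0.4 the median was 2.2 RPM (interquartile range 1.34 to 3.81). DPPA3, with 6 CG dinucleotides, had 1.06 RPM, where 595 gene names with a ratio of 0.5 to 0.6 had a median of 2.93 RPM (interquartile range 1.67 to 6.90). The 300 bases are a small part of the 5 kb over which the mark was counted.

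**Figure D4:**
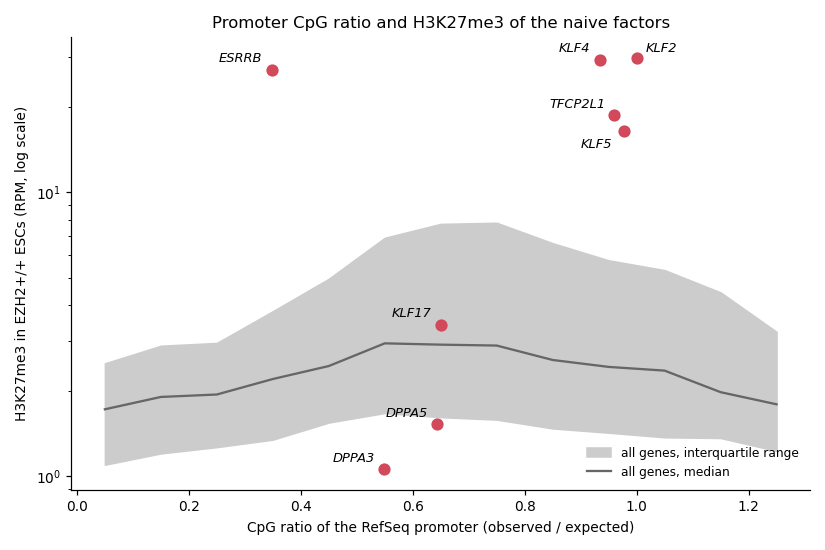
CpG ratio of the RefSeq promoter (x axis) and H3K27me3 in EZH2+/+ ESCs in RPM (y axis, log scale) for the 8 naive factors, with the median and interquartile range of all gene names in bins of CpG ratio holding at least 20 genes. KLF2, KLF4, KLF5, TFCP2L1 and ESRRB lie above the interquartile range, KLF17 within it, and DPPA5 and DPPA3 below it.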

How the data were processed

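RNA-seq covered 12 libraries (4 genotypes, 3 libraries each). Per the methods, the authors trimmed reads with Trim Galore 0.4.0, aligned them with TopHat2 2.0.12 to GRCh38, counted them over Ensembl genes in SeqMonk without regard to strand, and deposited log2 RPM values. A gene without a read was listed as 0.9 read, which was kept. For ChIP-seq, the authors aligned reads with Bowtie2 2.2.5, dropped duplicates and deposited log2 RPM in windows around start sites, 1 column for each mark and genotype.

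RPM values were recovered from log2, and 0.1 was added before log2 was taken again. Genes averaging 0.1 RPM or more were tested in R 4.3.3 with limma 3.58.1 (trended variance, all 12 libraries, genotype only), with Benjamini-Hochberg adjustment and a threshold of 0.05. The script was first tested on simulated data. As the deposited unit is log2, no count model was used. The p-values measure the spread between libraries of a clone.

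Libraries with the same number deviated together from their genotype means in all 18 pairs (mean r 0.336, lowest 0.108; -0.161 over 36 pairs of different number), so a fit with the number as a block is given where it changed a call. Low values step as in means of 2 libraries in each histone and input column (the labels list 2, the methods 3), and no separate replicates were used here, so differences have counting intervals only. For each naive factor the window with most H3K27me3 in EZH2+/+ ESCs was used. From each gene list, counts and up to 4 called genes with the largest change are named (the 2 with the highest mean RPM where none was called). SOX2 and COL1A2 fall outside this rule and were named after their values were seen. The genes and lists were chosen with earlier results of these data known. Alternatives were another pseudocount, filter, scaling, variance model or set of genotypes, the block, and leaving out each library.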

Additional observations from a re-analysis of the deposited data

How the results depend on the processing

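Depth limited ESRRB (3 to 25 reads per library), KLF17 and DPPA5, and ChIP-seq had no replicate error. Of 282 fold changes under other settings, 259 kept their direction and side of the threshold, and of 432 with 1 library left out, 381 did. For EZH2-/+ against EZH2+/+ ESCs, 0 of the naive factors were called with a pseudocount of 1, with no filter, with a mean of at least 1 RPM or with only the 2 genotypes, and the genes called, 241 in all, became 158 with no filter, 21 with only the 2 genotypes and 610 with the replicate block. For EZH2-/-+EZH2 against EZH2+/+ ESCs, 1 was called with a pseudocount of 1, and genes called rose from 2112 to 4590 with the block. For EZH2-/- against EZH2-/-+EZH2 ESCs, a mean of at least 1 RPM left 2 naive factors (fewer genes tested) and 284 genes called, and the block gave 1976. Against EZH2-/+ ESCs, the EZH2-/- count of 3876 became 6734 with the block and 2425 with only the 2 genotypes. For EZH2-/-+EZH2 against EZH2-/+ ESCs, 0 were called with no filter or with only the 2 genotypes, and genes called, 490, became 320, 137 and, with the block, 1329. The block changed no call of a naive factor other than those of KLF4 and TFCP2L1 given above. The causes were not tested.

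With 1 library left out, in the order EZH2-/- against EZH2+/+, EZH2-/+ against EZH2+/+, EZH2-/-+EZH2 against EZH2+/+, EZH2-/- against EZH2-/-+EZH2, EZH2-/- against EZH2-/+, and EZH2-/-+EZH2 against EZH2-/+, the naive factors called were 5 to 6, 0 to 1, 2 to 3, 2 to 6, 5 to 6 and 0 to 1, and the genes called were 4214 to 7807, 68 to 605, 891 to 2994, 153 to 1102, 2105 to 4193 and 162 to 516. The lowest of these for EZH2-/- against EZH2-/-+EZH2 ESCs, 153, was without EZH2-/- replicate 2. Uncalled log2 fold changes that reversed ranged, for EZH2-/+ against EZH2+/+ ESCs, from -0.36 to 0.17 at KLF2 (0.00086 without EZH2+/+ replicate 3) and from -0.23 to 0.50 at KLF5. For EZH2-/-+EZH2 against EZH2-/+ ESCs they ranged from -0.44 to 0.59 at KLF4 and from -0.21 to 0.51 at KLF5, where a pseudocount of 1 gave -0.0041. Of 320 ChIP-seq values 290 stayed within counting error and 29 moved beyond it. H3K27me3 at ESRRB in EZH2-/-+EZH2 against EZH2+/+ ESCs reversed to 0.026 when the median over all windows was subtracted.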
